A study of Homo sapiens with 6 samples.

Results

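SKBR3 is an established human breast cancer line, labelled as luminal and HER2-positive, and it was compared here between 1% oxygen for 8 hours (hypoxia) and 21% oxygen (normoxia). The quantity measured was polysome RNA, the RNA that sediments with mRNAs carrying several ribosomes. Of 30726 gene symbols measured, the 10155 that reached 1 RPKM (a read density, corrected for transcript length and for the number of reads in the library) in either SKBR3 library or both were taken as members. The same rule gave 11000 genes in SUM1315 and 10647 in T47D, 2 further breast cancer lines of the series. The genes closest to the threshold were AL121603.2, at 1.0003 RPKM in its higher library, on the inner side and AC090198.1, at 0.9996 RPKM, on the outer side. The labels call every line wild type and name no transgene or drug other than cycloheximide, which holds ribosomes on mRNA and was given to every culture before lysis. SKBR3 was grown in serum-containing McCoy's medium, SUM1315 with added insulin and EGF, and T47D with added insulin, so that line and medium cannot be told apart. SUM1315 is labelled triple negative and T47D luminal A. Each line gave 1 library per oxygen level.

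With 1 library a side there is no replicate check within SKBR3, and no p-value was computed there. A gene was counted as higher or lower when its log2 ratio of hypoxia over normoxia, on the log2(RPKM + 1) scale, reached 1 in size. The added 1 shrinks the ratios of weakly detected genes. Because RPKM is a share of what was sequenced, a higher value means a larger share of polysome RNA. RNA from whole lysates was not analysed here, so more mRNA and more ribosomes per mRNA cannot be told apart.

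The label fitted its markers. ERBB2, the HER2 receptor gene, stood at 615 RPKM in SKBR3 normoxia and 743 in hypoxia, against 5.34 to 8.76 in the other 4 libraries. Its chromosome 17 neighbours GRB7, a signalling adaptor, and STARD3, a cholesterol transfer protein, stood at 53.5 and 155 RPKM in SKBR3 normoxia. Both were under 14 RPKM in every other library. Among markers of estrogen receptor-positive cells, ESR1, PGR and GREB1 were at or under 0.0582 RPKM in both SKBR3 libraries. TFF1, a secreted trefoil peptide, was the exception, at 38.8 RPKM in normoxia and 67.6 in hypoxia. Of 5 mesenchymal markers VIM (4.96 and 5.14 RPKM) and CAV1 (3.33 and 4.37) reached 1 RPKM, and of 7 leukocyte and stromal markers CD68 alone did (5.51 and 5.88).

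Cells sense oxygen through prolyl hydroxylases, which mark the alpha subunits of the hypoxia-inducible factors (HIF) for destruction by VHL while oxygen is present. When oxygen is short, HIF alpha pairs with ARNT, binds a short DNA element built around ACGTG or GCGTG and drives genes of glucose uptake, glycolysis, acid export, vessel growth and mitophagy. Low oxygen also lowers mTORC1 signalling, on which the translation of ribosomal protein mRNAs depends through a run of pyrimidines at their 5' end. The study's title names ribosome biogenesis and HIF1A, and its stated question is how hypoxia affects the translation of mRNAs.

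In SKBR3, 235 genes were higher by at least 1 (2.31% of members) and 71 were lower (0.699%). The shares were 1.75% and 0.1% in SUM1315, and 2.34% and 0.967% in T47D. Large differences lay on the upper side only: 31 SKBR3 genes were higher by 2 or more, and none was lower by as much. Most of the transcriptome moved little, with 80.7% of members within 0.5 of no difference and a median log2 ratio of -0.05. Of the genes counted as higher, 49 were under 1 RPKM in normoxia, 107 stood between 1 and 10 RPKM and 79 started at 10 RPKM or more. Among genes at 10 RPKM or more in both libraries the median hypoxia value was 0.922 of the normoxia value, a log2 shift of -0.12. Dividing by that median gave 319 higher and 48 lower genes in place of 235 and 71.

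**Figure D1:**
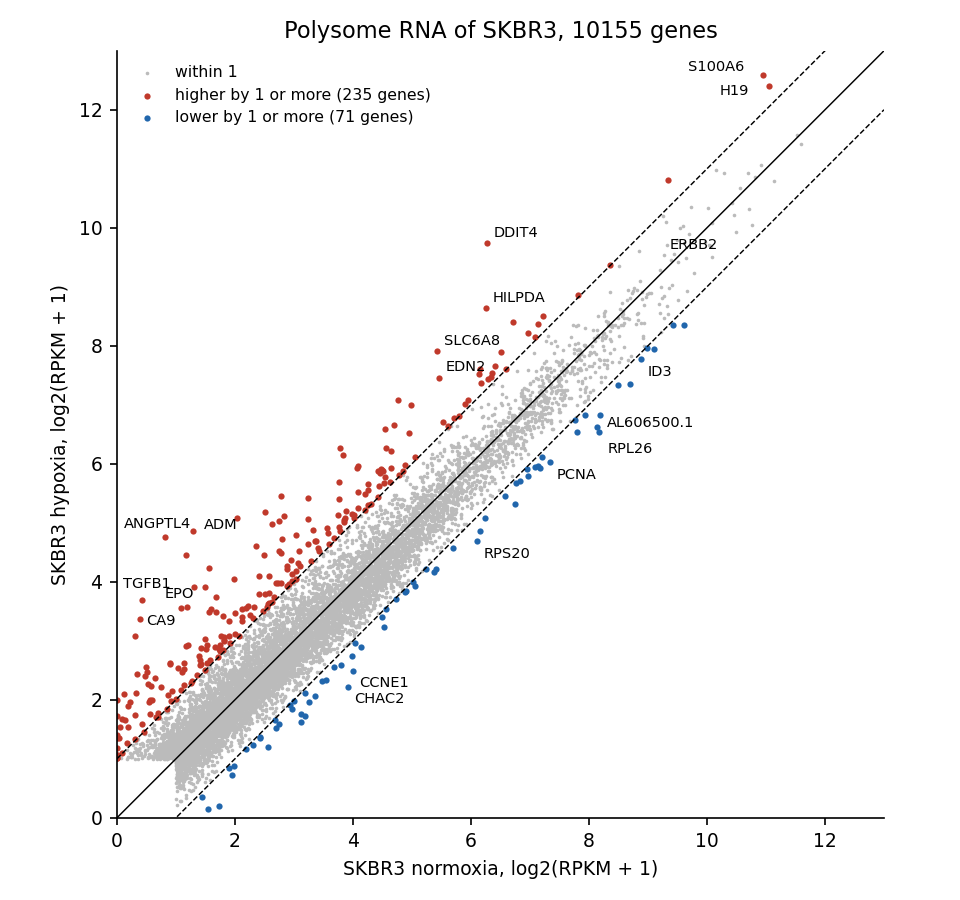
Each point is 1 of 10155 genes, with SKBR3 normoxia on the x axis and SKBR3 hypoxia on the y axis, both as log2(RPKM + 1). Dashed lines mark a difference of 1. The 235 genes above the upper line (red) reach farther from the diagonal than the 71 genes under the lower line (blue).

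In SKBR3, 6 genes were higher by 3 or more: ANGPTL4, ADM, DDIT4, ANKRD37, TGFB1 and AP000356.5, of which the last 2 are described further on. ANGPTL4, a secreted inhibitor of lipoprotein lipase, went from 0.761 to 26.2 RPKM (log2 ratio 3.95). ADM, the precursor of the vasodilator peptide adrenomedullin, went from 1.45 to 28.1 RPKM (3.57). DDIT4, which restrains mTORC1, went from 76.3 to 853 RPKM (3.47). Of these, DDIT4 alone was abundant before oxygen was lowered. ANKRD37, an ankyrin repeat protein, went from 1.25 to 21.1 RPKM (3.29). BHLHE40, a transcriptional repressor of the circadian system, went from 5.89 to 42.8 RPKM (2.67). BNIP3L, a mitophagy receptor, went from 4.72 to 35.2 RPKM (2.66). The related BNIP3 went from 25.1 to 100.4 RPKM (1.96), while its ratios in SUM1315 and T47D were 3.14 and 3.31.

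Gene lists, here and further on, were chosen with earlier results of these data known, so their counts are a description. Of 46 HIF targets listed, 38 were members, and 26 of these were higher by at least 1 and none lower, against the 2.31% of all members. The median ratio over the 38 was 1.77, against -0.05 over all members. In SUM1315 and T47D, over the listed genes that reached 1 RPKM there, it was 1.66 and 1.64. Carbonic anhydrase genes parted ways: CA9, a cell surface enzyme that acidifies the surroundings, went from 0.316 to 9.40 RPKM, whereas its relative CA12 went from 30.9 to 23.7 RPKM. CA12, WSB1 and JMJD6 were the 3 members of the list with a ratio under 0. After division by the median ratio, those of WSB1 and JMJD6 were 0.01 and 0.02. The lactate exporter SLC16A3 went from 29.8 to 90.4 RPKM (1.57), and the angiogenic factor VEGFA from 2.19 to 10.2 RPKM (1.81).

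The oxygen sensing system itself differed by member. EGLN3, a prolyl hydroxylase whose own gene HIF induces, went from 1.80 to 14.1 RPKM in SKBR3. EGLN1, the main prolyl hydroxylase, went from 13.8 to 26.7 RPKM (0.90), and EGLN2 from 18.2 to 13.8 (-0.38). CITED2, a coactivator-binding protein that limits HIF activity, went from 26.2 to 134 RPKM (2.31). LIMD1, a scaffold that brings prolyl hydroxylase and VHL together, went from 1.99 to 5.36 RPKM (1.09), and the antisense LIMD1-AS1 from 2.48 to 9.77 (1.63). Exons of LIMD1 and LIMD1-AS1 overlap on opposite strands. The strand setting of the counts is not given, so reads in the overlap cannot be told apart. The HIF subunits themselves stayed close to their normoxic share: HIF1A stood at 3.09 and 3.26 RPKM, EPAS1 (HIF-2 alpha) at 13.1 and 12.1, and ARNT at 3.58 and 4.71. VHL stood at 14.2 and 13.1 RPKM. In SKBR3, EPAS1 was thus the more abundant of both alpha subunit mRNAs per length, in normoxia and in hypoxia.

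The DNA in front of some of these genes holds the HIF element. The stretches shown are the 250 bases before the RefSeq start of 4 of them (GRCh38.p14), chosen as 3 of the strongly higher genes with a match and 1 without. Capitals mark ACGTG or GCGTG on either strand, so that CACGT and CACGC are their reverse complements, and CACGTG holds overlapping matches on both strands. The windows lie at chr9:35673678-35673927 (CA9, plus strand), chr4:185396591-185396840 (ANKRD37, plus), chr10:72273674-72273923 (DDIT4, plus) and chr7:100720218-100720467 (EPO, plus).
CA9: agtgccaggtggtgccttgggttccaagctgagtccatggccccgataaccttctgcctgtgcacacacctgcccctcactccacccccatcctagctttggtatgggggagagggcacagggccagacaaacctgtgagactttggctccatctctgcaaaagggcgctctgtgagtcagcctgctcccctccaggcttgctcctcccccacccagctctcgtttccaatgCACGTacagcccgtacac
ANKRD37: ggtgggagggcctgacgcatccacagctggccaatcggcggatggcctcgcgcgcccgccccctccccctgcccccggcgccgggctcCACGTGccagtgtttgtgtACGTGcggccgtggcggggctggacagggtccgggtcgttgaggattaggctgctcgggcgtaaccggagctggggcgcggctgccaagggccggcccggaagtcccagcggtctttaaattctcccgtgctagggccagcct
DDIT4: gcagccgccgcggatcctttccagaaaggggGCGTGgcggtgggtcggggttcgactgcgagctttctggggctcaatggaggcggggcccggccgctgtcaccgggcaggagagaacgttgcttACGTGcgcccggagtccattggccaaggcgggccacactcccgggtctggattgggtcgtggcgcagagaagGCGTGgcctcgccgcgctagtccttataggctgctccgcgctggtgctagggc
EPO: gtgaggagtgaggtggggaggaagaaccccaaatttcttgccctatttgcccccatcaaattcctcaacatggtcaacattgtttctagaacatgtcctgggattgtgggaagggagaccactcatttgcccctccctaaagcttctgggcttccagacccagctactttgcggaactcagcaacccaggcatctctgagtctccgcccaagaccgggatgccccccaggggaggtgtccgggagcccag
The CA9 match begins 18 bases before the start, and that of ACGTG in DDIT4 125 bases before it.

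Over the 7815 members with a promoter entry, 24.7% held ACGTG in this window on either strand, against 18.7% of all 27305 promoters in the table. Of the 29 higher genes from the HIF target and glycolysis lists with an entry, 15 held it (51.7%). Among the 120 other higher genes the share was 26.7%, close to that of all members, and among the 47 lower genes it was 29.8%. With GCGTG allowed as well, the shares were 65.5% of the 29, 59.3% of members and 43.1% of all promoters. A match is a description of the letters and no record of binding.

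Of 21 members of the glucose uptake and glycolysis list, 14 were higher by at least 1 and none lower, against 2.31% and 0.699% of all members. The other 7 did not reach 1, all 21 had a ratio above 0, and the median was 1.35, against 0.85 in SUM1315 and 1.13 in T47D. At the entry, the glucose transporter SLC2A1 went from 12.7 to 75.9 RPKM (2.48) and SLC2A3 from 0.409 to 4.91 (2.07). HK1 and HK2, the hexokinases that trap glucose in the cell, went from 15.9 to 60.2 (1.86) and from 6.12 to 33.5 RPKM (2.28). The phosphofructokinase PFKP went from 2.95 to 15.6 RPKM (2.08), and PFKFB4, which makes its activator, from 1.27 to 10.9 (2.39). Lower in the chain, PGK1 went from 16.1 to 61.4 (1.87), ENO1 from 103 to 338 (1.70) and PKM from 22.5 to 75.8 RPKM (1.71). The most abundant members had the smaller ratios, with GAPDH going from 1138 to 2021 RPKM (0.83), ALDOA from 462 to 782 (0.76) and TPI1 from 638 to 840 (0.40). Together the glycolysis genes took up 1.01% of the summed RPKM in normoxia and 1.82% in hypoxia. The SKBR3 ratio was above both other lines in 13 of the 21 genes (61.9%), against 30.7% of all members. None of the 20 genes of the list that could be tested passed the test of a difference between lines described further on.

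Other fuel and matrix enzymes joined them in part. Glycogen synthase GYS1 went from 4.97 to 11.5 RPKM (1.06), and the glycogen phosphorylases PYGL and PYGB from 4.87 to 11.3 (1.06) and from 4.98 to 13.1 (1.24). These were the 3 higher genes among 14 of glycogen metabolism, against 2.31% of all members. P4HA1, which hydroxylates collagen, went from 12.6 to 50.5 RPKM (1.92). The pentose phosphate enzyme TKT, in no list and named after its values were seen, went from 18.7 to 38.8 RPKM (1.02).

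The list of pyruvate dehydrogenase, its regulators and the citric acid cycle had a ratio above 0 in 18 of 26 members and below 0 in 8. In it, 1 gene (PDK1) was higher by at least 1, against 2.31% of all members, and none was lower. The list median was 0.33 in SKBR3, -0.11 in SUM1315 and -0.39 in T47D. IDH2, the mitochondrial NADP-dependent isocitrate dehydrogenase, went from 64.0 to 120 RPKM in SKBR3 (0.90), from 47.6 to 44.5 in SUM1315 and from 147 to 89.5 in T47D. SDHA, the catalytic subunit of succinate dehydrogenase, went from 2.83 to 6.58 RPKM in SKBR3 (0.99). PDHA1, the E1 subunit of pyruvate dehydrogenase, went from 10.6 to 15.9 RPKM in SKBR3 (0.54) and had ratios of -0.32 in SUM1315 and -0.90 in T47D. From another list, ATP5F1B, the catalytic beta subunit of ATP synthase, went from 223 to 466 RPKM in SKBR3 (1.06). It went from 302 to 177 in SUM1315 and from 256 to 172 in T47D. Its list, 78 nuclear oxidative phosphorylation genes, had an SKBR3 median of 0.02, whose sign changes with the scaling. In 25 of those 78 (32.1%) the SKBR3 ratio was above both other lines, a share near the 30.7% of all members. IDH3A had the lowest SKBR3 ratio of the 26, going from 15.9 to 8.66 RPKM (-0.81), with negative ratios in both other lines as well. The SKBR3 ratio was above both other lines in 18 of the 26 genes (69.2%), against 30.7% of all members.

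**Figure D2:**
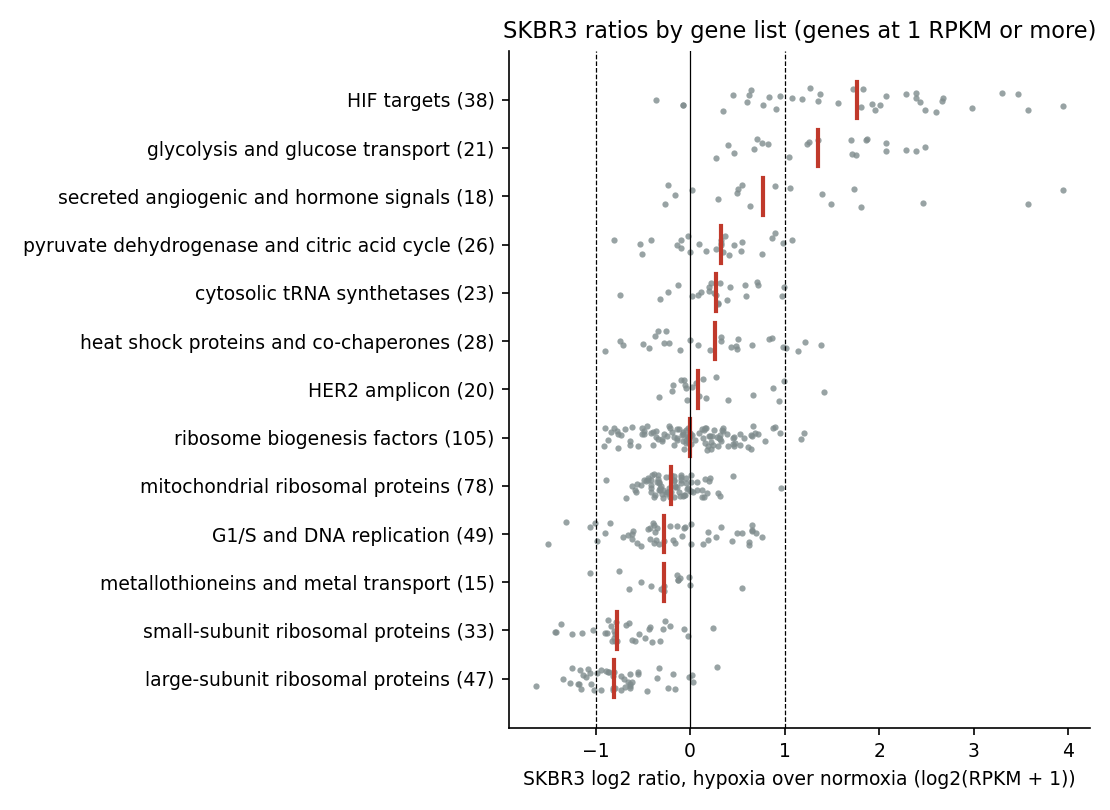
Points are genes of 13 lists at 1 RPKM or more in an SKBR3 library, placed by their SKBR3 log2 ratio of hypoxia over normoxia on the log2(RPKM + 1) scale, with the number of genes in brackets. Red bars are list medians and dashed lines mark a ratio of 1 in size. HIF targets (median 1.77) and glycolysis genes (1.35) lie on the right, and large- and small-subunit ribosomal proteins (-0.81 and -0.77) on the left.

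Of 18 members of the list of secreted angiogenic and hormone signals, 8 were higher by at least 1, against 2.31% of all members, none was lower and the median was 0.77. EPO, the hormone that drives red cell production, went from 1.13 to 10.8 RPKM in SKBR3 (2.46), stood at 0 and 1.22 RPKM in T47D normoxia and hypoxia, and was listed at 0 in both SUM1315 libraries. STC1, a calcium and phosphate regulator, went from 0.441 to 3.80 RPKM (1.73), and PDGFB, a growth factor for vessel wall cells, from 20.9 to 56.4 (1.39). The vasoconstrictor peptide gene EDN2, in no list, went from 43.1 to 175 RPKM (2.00), and EDN1 from 11.4 to 22.1 (0.90). ECE1, the protease that turns endothelin precursors into active peptide, went from 5.00 to 16.1 RPKM (1.51), with ratios of -0.21 in SUM1315 and 0.17 in T47D. EDN2 was listed at 0 in both SUM1315 libraries and stood at 0.729 and 2.35 RPKM in T47D. EDN2, ECE1 and the other genes said to be in no list were picked out after their values were seen.

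TGFB1, the precursor of transforming growth factor beta 1, gave the clearest contrast between the lines. It went from 0.339 to 11.9 RPKM in SKBR3 (3.26), from 57.3 to 50.3 in SUM1315 and from 1.14 to 1.19 in T47D. The gene lies on the minus strand at chr19:41301587-41353911 (GRCh38, GENCODE release 29). Its exons overlap those of HNRNPUL1 on the other strand, which stood at 57.9 and 55.8 RPKM in SKBR3, and CCDC97, also on the other strand and inside its range, went from 20.6 to 33.7. The sources used here do not give the strand setting of the counts, so reads of overlapping genes cannot be told apart. The rest of the pathway did not move as one: of 29 members 3 were higher by at least 1 (TGFB1, GDF15 and ID2) and 1 was lower (ID3). Over all members the shares were 2.31% and 0.699%. The SMAD-responsive repressors of differentiation parted, with ID3 going from 473 to 217 RPKM (-1.12), ID1 from 162 to 104 (-0.64) and ID2 from 70.9 to 164 (1.20). The receptor TGFBR1 went from 96.2 to 140 RPKM (0.54).

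SKBR3 also held genes that the other lines hardly had. Among the members, 561 stayed under 1 RPKM in all 4 libraries of SUM1315 and T47D, and of these 41 were higher by at least 1 (7.31%, against 2.31% of all members) and 7 lower (1.25%, against 0.699%). At 3 RPKM or more in an SKBR3 library, 24 of 171 were higher (14%) and 5 lower (2.92%). Genes of this set entered through their SKBR3 RPKM alone, and either threshold favours genes that gained or lost RPKM, so these shares are a description.

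Besides CA9 and EGLN3, NDUFA4L2, a mitochondrial protein related to NDUFA4, went from 0.234 to 7.42 RPKM (2.77). CA9 overlaps ARHGEF39 (2.34 and 1.81 RPKM in SKBR3) and NDUFA4L2 overlaps SHMT2 (12.6 and 25.2), each on the other strand. PTGS1, the constitutive cyclooxygenase, went from 1.94 to 17.7 RPKM (2.67) and was at or under 0.07 RPKM in the 4 other libraries. PTAFR, the receptor for platelet-activating factor, went from 8.49 to 41.9 RPKM (2.18), and stood at or under 0.61 RPKM elsewhere. CLEC3B, which codes for tetranectin, went from 0.273 to 4.44 RPKM (2.10). The calcium-binding S100A5 went from 2.21 to 12.3 RPKM (2.05). TFF2, a trefoil peptide of mucosal secretions, went from 0.856 to 5.12 RPKM (1.72). In no list, TH, the enzyme that starts catecholamine synthesis, went from 21.7 to 58.0 RPKM (1.38), with at most 0.0707 RPKM elsewhere. Under 1 RPKM, some of these genes also rose in T47D. There CA9 went from 0 to 0.946 RPKM (0.96), CLEC3B from 0 to 0.548 (0.63) and EGLN3 from 0.236 to 0.868 (0.60). PTAFR and NDUFA4L2 had T47D ratios of 0.46 and 0.33, and S100A5, PTGS1 and TFF2 had 0.15, 0.07 and 0. In SUM1315 the ratios of these genes lay between -0.35 and 0.12.

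At 3 RPKM or more, the 5 lower genes of this restricted set were AL606500.1, WNT5A, AC007923.1, TRGC1 and C11orf86. AL606500.1, a transcript with a clone-based name, went from 279 to 97.9 RPKM (-1.50). WNT5A, a ligand of non-canonical WNT signalling, went from 8.08 to 2.31 RPKM (-1.46). TRGC1, a constant segment of the T cell receptor gamma locus, went from 41.3 to 17.5 RPKM (-1.19), with 0 in all 4 other libraries. The long noncoding RNA AC007923.1 went from 4.92 to 1.29 RPKM (-1.37), and C11orf86 from 3.93 to 1.34 (-1.07). The skin antimicrobial protein gene S100A7 (18 and 9.08 RPKM, -0.91) and the metallothionein MT1G (7.25 and 3.9 RPKM, -0.75) did not reach 1.

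**Figure D3:**
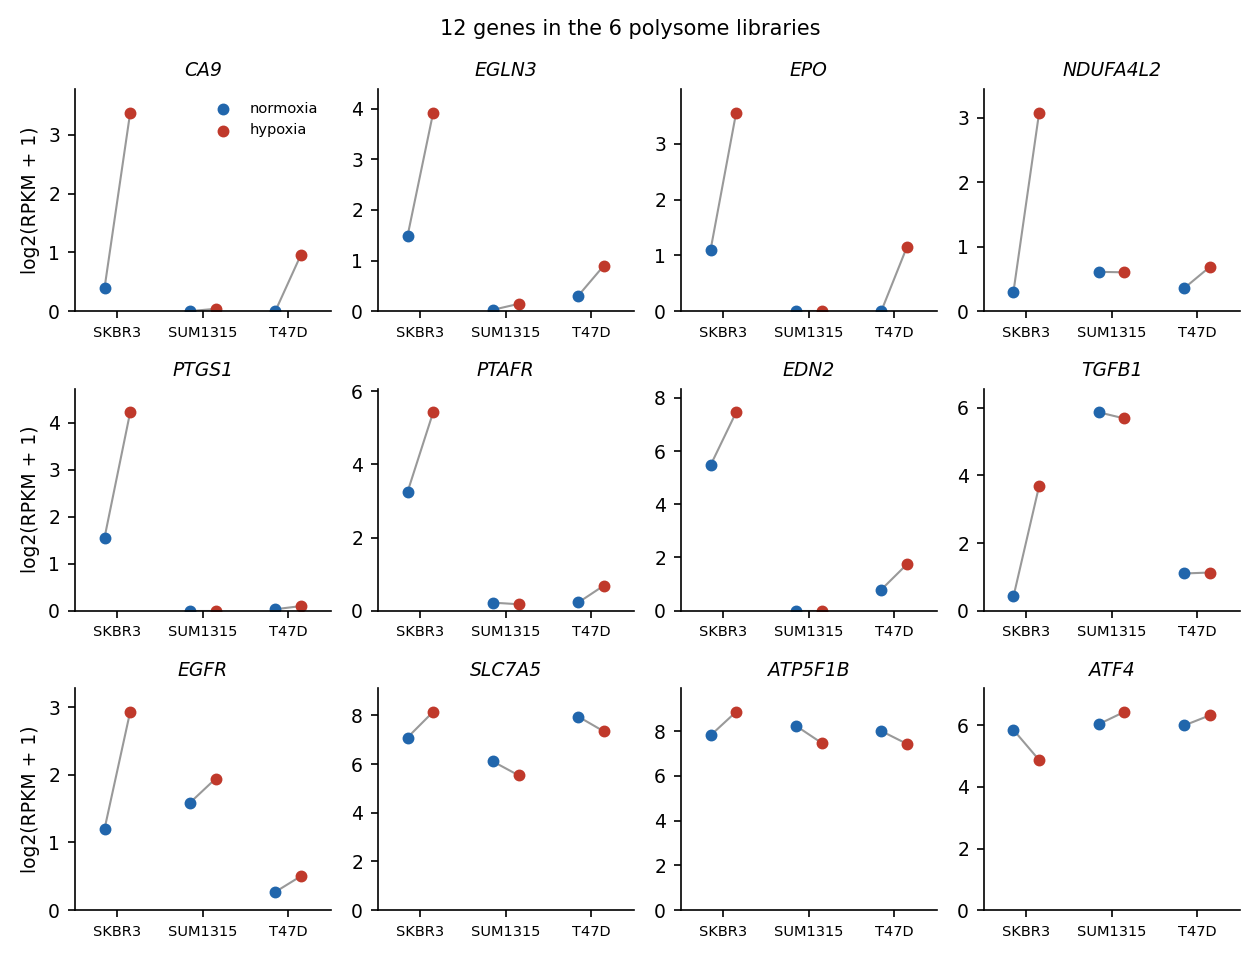
Each panel shows 1 gene in 6 libraries as log2(RPKM + 1), with blue points for normoxia and red points for hypoxia and a grey line joining the libraries of a line. Panels have their own y axes, all starting at 0. CA9, EGLN3, NDUFA4L2, PTGS1 and PTAFR stay under 1 RPKM in the other lines, though CA9, EGLN3, NDUFA4L2 and PTAFR also rise in T47D. SLC7A5, ATP5F1B and ATF4 move one way in SKBR3 and the other way in SUM1315 and T47D.

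Of the HER2 amplicon, the stretch of chromosome 17 around ERBB2 that is multiplied in HER2-positive tumours, 20 listed genes were members, 1 was higher by at least 1, none was lower and the median was 0.08. A count of 1 in 20 is near the 2.31% of all members. TCAP, a titin-binding protein, was the higher one, going from 6.73 to 19.6 RPKM (1.42). RARA, a retinoic acid receptor, went from 49.5 to 99.3 RPKM (0.99), PNMT from 0.952 to 2.74 (0.94) and GRB7 from 53.5 to 98.8 (0.87). ERBB2 itself had a ratio of 0.27, STARD3 one of -0.18 and MIEN1 (245 and 194 RPKM) one of -0.33, so that neighbours in the amplicon differed in direction. Among the other ERBB receptors, EGFR went from 1.30 to 6.62 RPKM (1.73), with ratios of 0.36 in SUM1315 and 0.23 in T47D, and ERBB3 stood at 9.87 and 9.06 RPKM. ERRFI1, a feedback inhibitor of EGFR and HER2, went from 11 to 24.1 RPKM (1.06). SPRY4, a feedback inhibitor of RAS signalling, went from 2.73 to 0.80 RPKM (-1.05), while SPRY1 went from 2.48 to 5.91 (0.99).

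Of 24 members of the luminal list 4 were higher by at least 1, against 2.31% of all members, and none was lower. The median was 0.00, with 12 members above 0 and 12 below, and its sign changes with the scaling. KRT19 went from 645 to 1793 RPKM (1.47), the trefoil gene TFF3 from 20.5 to 57.7 (1.45), KRT8 from 148 to 362 (1.28) and KRT7 from 125 to 298 (1.25). KRT18 (365 and 656 RPKM, 0.85) did not reach 1. KRT8 and KRT18 have exons that overlap on opposite strands. Of the transcription factors of the list, none reached 1 in either direction. FOXA1, which opens chromatin for hormone receptors, stood at 47.2 and 27.2 RPKM (-0.77), XBP1 at 484 and 285 (-0.76), SPDEF at 290 and 216 (-0.43) and GATA3 at 8.89 and 6.95 (-0.31). The desmosomal linkers DSP and JUP went from 2.03 to 10.6 (1.94) and from 27.7 to 57.7 RPKM (1.03). The claudins CLDN1, CLDN3, CLDN4 and CLDN7 had ratios from -0.50 to -0.19.

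The largest gains in RPKM were those of S100A6, H19, KRT19, GAPDH and DDIT4. S100A6, a small calcium-binding protein of epithelial cells, went from 1973 to 6173 RPKM (1.65) and from 0.721% to 2.27% of the summed RPKM of the library. Its ratios were -0.33 in SUM1315 and 0.45 in T47D. The imprinted noncoding RNA H19 went from 2126 to 5394 RPKM (1.34), with at most 3.49 RPKM in the other lines. Among genes with smaller gains, the creatine transporter SLC6A8 went from 42.1 to 240 RPKM (2.48), and CKB, the brain-type creatine kinase, from 22.4 to 95.6 (2.04). MB, myoglobin, which is in no list, went from 61.2 to 135 RPKM (1.13), and MYH9, a nonmuscle myosin, from 8.43 to 24.0 (1.40). The small heat shock protein HSPB1 had the largest loss in RPKM, from 1733 to 1056, with a ratio of -0.71 that did not reach 1.

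On the lower side, ribosomal proteins of the cytosol stood out. Of 80 measured, 76 had a ratio under 0, 20 were lower by at least 1 and none was higher, against 0.699% of all members lower. They made up 28.2% of the 71 lower genes. Their share of the summed RPKM was 10.0% in normoxia and 6.60% in hypoxia. The median was -0.79, against -0.44 in SUM1315, where none was lower by 1, and -0.53 in T47D, where 1 was. The SKBR3 ratio was below both other lines in 57 of the 80 (71.2%), against 42.6% of all members. Dividing by the median ratio of the library left the SKBR3 median at -0.67. Of the 80, none passed the test of a difference between lines on the deposited values.

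Large-subunit proteins (47 genes, 14 lower, median -0.81) and small-subunit proteins (33 genes, 6 lower, median -0.77) were alike. RPL26, near the exit of the peptide tunnel, went from 288 to 92.3 RPKM (-1.63). RPS15A went from 107 to 38.8 RPKM (-1.43) and RPS13 from 292 to 113 (-1.36). RPS20 behaved differently from its peers across the lines, going from 67.8 to 24.7 RPKM in SKBR3 (-1.42) but from 82.1 to 93.2 in SUM1315 and from 71.3 to 82.2 in T47D. At the other end, RPL4 (0.28), RPS28 (0.24), RPL41 (0.03) and RPLP1 (0.02) had ratios above 0, and RPL3 stood at 273 and 270 RPKM. Ribosomal protein genes have many near-identical pseudogenes, which took 1.06% of the summed RPKM of both kinds in normoxia and 1.48% in hypoxia.

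**Figure D4:**
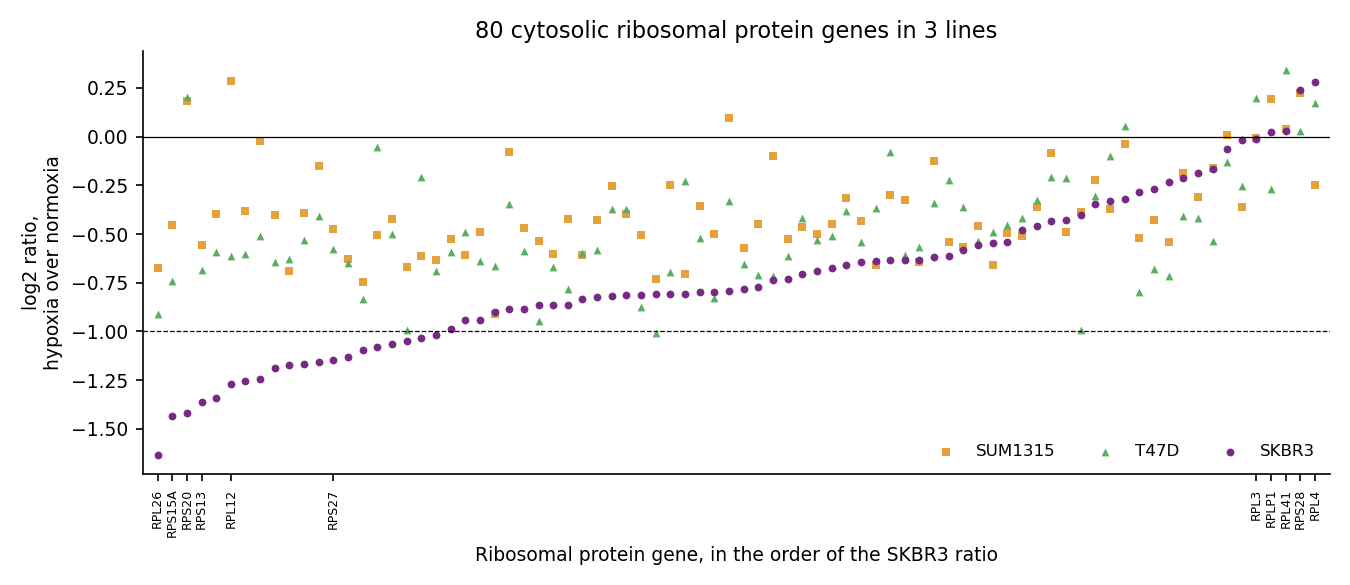
The y axis is the log2 ratio of hypoxia over normoxia and the x axis orders 80 ribosomal protein genes by their SKBR3 ratio, with some of those described here named. Circles are SKBR3, squares SUM1315 and triangles T47D. In 57 of the 80 genes the SKBR3 ratio is the lowest of the 3 lines, and 20 lie at or under -1 (dashed line).

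The 5' end of a ribosomal protein mRNA usually starts with C and a run of pyrimidines, the terminal oligopyrimidine tract. RefSeq starts (GRCh38.p14) are shown for 4 of the lower ribosomal protein genes and, below them, for 3 with ratios near or above 0 and for the elongation factor EEF2. Each line gives 5 bases before the start and 20 from it, with the unbroken pyrimidine run from the start in capitals. Windows are chr17:8383174-8383198 (RPL26, minus strand), chr11:17077648-17077672 (RPS13, minus), chr9:127451387-127451411 (RPL12, minus), chr1:153990757-153990781 (RPS27, plus), chr12:56116628-56116652 (RPL41, plus), chr22:39319604-39319628 (RPL3, minus), chr19:8321491-8321515 (RPS28, plus) and chr19:3985444-3985468 (EEF2, minus).
RPL26: tagttCTCTTCCCTTTTgcggccat
RPS13: gctctCCTTTCgttgcctgatcgcc
RPL12: tccggCCTCTCggctttcggctcgg
RPS27: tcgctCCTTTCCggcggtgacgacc
RPL41: cctttCTCTCggccttagcgccatt
RPL3: ccggcCTCTaccggcgggatttgat
RPS28: acgtgactcctctccgccagaccgc
EEF2: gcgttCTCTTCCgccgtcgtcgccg
RPL26 has the longest run of these, 12 bases, and RPS28 starts with A in RefSeq. EEF2, with a run of 7 bases as in RPS27, went from 211 to 326 RPKM (0.63), while RPS27 went from 548 to 247 (-1.15).

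Of 47 lower genes with an entry, 27.7% started with C and at least 4 further pyrimidines, against 5.87% of all members, and without ribosomal proteins it was 9.09% of 33. Among ribosomal protein genes with an entry, the 44 with such a start had a median ratio of -0.76, and the 20 with another start one of -0.78. Among the other members, 415 with such a start had a median of -0.05 and 7336 without it one of -0.06. RefSeq names 1 start per gene here, and the start used in SKBR3 was not measured. Of 22 translation factors known for such mRNAs, EIF3A, the largest subunit of initiation factor 3, was the one higher by at least 1 (12.6 to 41.5 RPKM, 1.65). A count of 1 in 22 is near the 2.31% of all members. The median of the 22 factors, 0.04, is near 0. It goes under 0 when the libraries are set to equal sums without ribosomal protein and mitochondrially encoded genes. EIF3C went from 20.8 to 48.1 RPKM (1.17), and its near-identical copy EIF3CL from 4.12 to 23.5 (2.26), so that reads may have been split between the copies.

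Of 105 factors that build ribosomes, 2 were higher by at least 1, a share near the 2.31% of all members, and none was lower. The median was -0.01, against -0.29 in SUM1315 and -0.17 in T47D. That SKBR3 median is above or below 0 with the scaling. The SKBR3 ratio was above both other lines in 67 of the 105 (63.8%), against 30.7% of all members. DDX21, a nucleolar helicase, went from 16.0 to 37.3 RPKM (1.17) and nucleolin (NCL) from 15.7 to 29.6 (0.87). FBL, the methyltransferase of box C/D particles, stood at 226 and 225 RPKM, and NPM1 at 92.4 and 93.9. PAK1IP1 (44.0 and 23.0 RPKM) and NOP16 (53.4 and 28.2), both needed for the large subunit, had the lowest ratios of the list, -0.91 and -0.90. RNA polymerase I genes had a median of -0.20, with none of 15 past 1 in either direction. That is near the 2.31% higher and 0.699% lower of all members.

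The median of the proteasome list was -0.06 in SKBR3, -0.34 in SUM1315 and -0.47 in T47D. The SKBR3 ratio was above both in 27 of 34 genes (79.4%), against 30.7% of all members. The sign of the SKBR3 median changes with the scaling. PSMD2, a base subunit of the regulatory particle, went from 26.5 to 55.4 RPKM (1.04), and PSME3, an activator of the core particle, from 29.7 to 15.3 (-0.92). The cytosolic chaperonin subunits CCT8 and CCT7 went from 13.5 to 32.7 (1.22) and from 22.1 to 49.9 RPKM (1.14), and HSP90AB1 from 69.6 to 184 (1.39). Of the 28 members of the heat shock list 4 were higher by at least 1 and none lower, against 2.31% and 0.699% of all members. DNAJB1 (47.9 and 25.1 RPKM, -0.91) and HSPA1A (19.4 and 14.1 RPKM, -0.43), which heat induces, had ratios under 0 that did not reach 1.

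Amino acid stress genes had mixed ratios, with 2 of 30 members higher by at least 1, 1 lower and a median of -0.05 whose sign depends on the scaling. Over all members 2.31% were higher and 0.699% lower. ATF4, the transcription factor of the integrated stress response, went from 56.7 to 28.3 RPKM in SKBR3 (-0.98), but from 64.7 to 85.6 in SUM1315 and from 62.8 to 79.0 in T47D. TRIB3, a pseudokinase that ATF4 induces, went from 107 to 50.4 RPKM (-1.08), and CHAC1, a glutathione-degrading enzyme, from 2.11 to 0.723 (-0.85). The related CHAC2 had the lowest ratio among members at 10 RPKM or more, from 14.1 to 3.67 RPKM (-1.70). SLC7A5, the large neutral amino acid transporter, went the other way, from 135 to 282 RPKM in SKBR3 (1.06), from 67.9 to 45.5 in SUM1315 and from 246 to 161 in T47D. Of 23 cytosolic tRNA synthetases and their cofactors 19 had ratios above 0, against 4512 of all 10155 members, with a median of 0.28. None was past 1, which is near the shares of all members.

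Of 49 members of the G1/S and DNA replication list, 4 were lower by at least 1, against 0.699% of all members. None was higher, 45 did not reach 1, 17 had ratios above 0 and the median was -0.28. CCNE1, the cyclin that starts S phase with CDK2, went from 15 to 4.63 RPKM (-1.50). PCNA, the sliding clamp of DNA polymerase, went from 161 to 64.2 RPKM (-1.31), and CDC25A, the phosphatase that activates CDK2, from 5.37 to 2.16 (-1.01). GINS3, a subunit of the replicative helicase complex, went from 8.09 to 3.35 RPKM (-1.06). The list was not uniform, as RRM1 (4.68 and 8.62 RPKM) and MCM7 (11.2 and 18.1) had ratios of 0.76 and 0.65. Replication-dependent histones had 3 of 21 members lower and 1 higher, against 0.699% and 2.31% of all members, and a median of -0.30. None of the 33 members of the mitosis list was past 1 in either direction, which is near the shares of all members.

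Early response genes, which growth signals and stress switch on within minutes, had a median of 0.02 in SKBR3, against 0.74 in SUM1315 and 0.67 in T47D. The SKBR3 ratio was below both other lines in 18 of 28 genes (64.3%), against 42.6% of all members. FOS went from 0.235 to 2.34 RPKM (1.44) and JUN from 2.79 to 6.81 (1.04). IER3, a stress-induced survival factor, went from 118 to 93.1 RPKM in SKBR3, from 154 to 520 in SUM1315 and from 161 to 325 in T47D. MYC, the growth-promoting transcription factor, stood at 18 and 23.5 RPKM (0.37).

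Of 15 metallothioneins and metal transport genes, 1 was lower by at least 1, against 0.699% of all members. Ratios were under 0 in 14 of the 15, against 5643 of all 10155 members, with a median of -0.28 and values as near 0 as that of FTL (-0.01). MT1X, which binds zinc and copper, went from 28.5 to 13.1 RPKM (-1.06), and MT2A stood at 246 and 157 (-0.64). Their medians in SUM1315 and T47D were 0.19 and 0.20. The 15 genes encoded in mitochondria had a median of -0.18 and listed values that differed among themselves. MT-ND2 went from 480 to 281 RPKM (-0.77). MT-ATP8, which overlaps MT-ATP6, went from 90.2 to 237 (1.39), and MT-ND4L, which overlaps MT-ND4, from 139 to 329 (1.24). The overlapped genes did not follow, with MT-ATP6 at 450 and 494 RPKM (0.13) and MT-ND4 at 1001.5 and 869 (-0.20). How reads in the overlaps were counted is not given, so the ratios of MT-ATP8 and MT-ND4L are uncertain.

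How far SKBR3 shared its response was read from the 8278 genes that every line held at 1 RPKM or more, in either of its libraries. Across these genes the log2 ratios of SKBR3 correlated with those of SUM1315 at Pearson r = 0.49 (Spearman rho = 0.41) and with those of T47D at 0.51 (0.45), while SUM1315 and T47D correlated at 0.64 (0.60). These are correlations over genes of 1 library pair per line, which describe the libraries. Of the 235 higher SKBR3 genes, 169 reached 1 RPKM in SUM1315 and could be counted there. In SUM1315, 53 were also higher by 1, which is 22.6% of the 235 and 27.5% of the 193 there (1.75% of SUM1315 genes). In T47D, 186 of the 235 reached 1 RPKM. Higher by 1 there were 76, 32.3% of the 235 and 30.5% of the 249 there (2.34% of T47D genes). Of 161 higher genes present in every line, 39 passed 1 in all 3. Of the 71 lower genes, 58 reached 1 RPKM in SUM1315 and 62 in T47D. None of the 71 was lower by 1 in SUM1315, where 11 genes were (0.1%). In T47D 4 were, 5.63% of the 71 and 3.88% of the 103 there (0.967%). With 11 lower genes in SUM1315, little overlap was possible there.

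The difference between the SKBR3 ratio and the mean ratio of SUM1315 and T47D was tested across all 8278 genes with limma, a linear model that moderates each gene's spread toward that of genes of like level. On the deposited values 4 genes were above (0.0483%) and none below (0.0%) at a Benjamini-Hochberg adjusted p under 0.05, with 876 at an unadjusted p under 0.05. After each line was scaled to its median ratio, 59 were above (0.713%) and 31 below (0.374%), the 4 among them. The spread rests on 1 residual degree of freedom, the contrast between SUM1315 and T47D, so that an SE is mostly borrowed from genes of like level. TGFB1 had a difference of 3.34 ± 0.27 (SE, adjusted p = 0.00127), AP000356.5 one of 2.81 ± 0.38 (adjusted p = 0.0479) and RNA5-8SN3 one of 2.61 ± 0.32 (adjusted p = 0.0277). PTMAP12, a prothymosin pseudogene that went from 0.0906 to 3.29 RPKM in SKBR3, had 1.66 ± 0.21 (adjusted p = 0.0277). RNA5-8SN3 is 1 of several near-identical 5.8S ribosomal RNA copies and PTMAP12 resembles its parent gene, so reads of both are uncertain. AP000356.5 went from 3.10 to 32.9 RPKM in SKBR3, from 30.6 to 25.6 in SUM1315 and from 29.8 to 49.8 in T47D.

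Several genes described above passed the same test only after median scaling. With that scaling limma's prior degrees of freedom went from 9.18 to 69.6, so these calls rest even more on spread borrowed from other genes. ADM had a difference of 1.87 ± 0.30 on the deposited values (adjusted p = 0.0956) and 1.93 after scaling (adjusted p = 0.000184). ATP5F1B, SLC7A5, S100A6, SLC6A8, ECE1, LIMD1, IDH2, PDHA1 and SDHA were above the other lines there, and IER3, RPS20, MT1X, ATF4 and CHAC1 below them. For these 14 the adjusted p on the deposited values lay between 0.178 and 0.299.

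**Figure D5:**
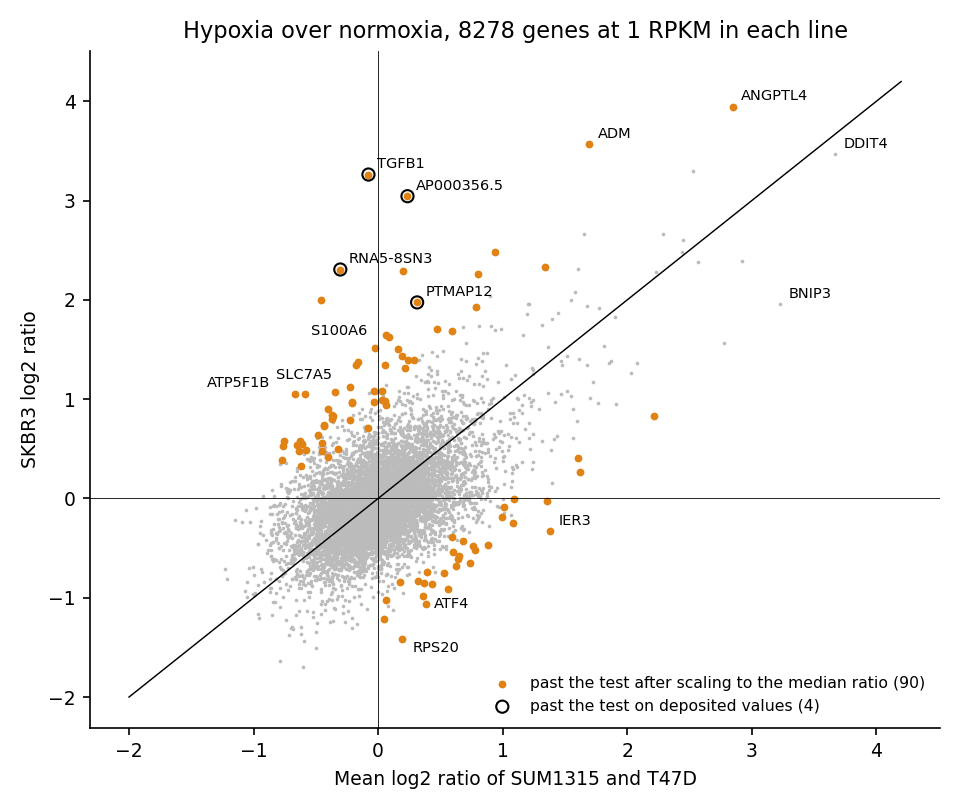
Each point is 1 of 8278 genes, with the mean log2 ratio of SUM1315 and T47D on the x axis and the SKBR3 log2 ratio on the y axis, and the line marks equal ratios. Circled genes (4) pass limma's test of the difference on deposited values, and orange genes (90) pass it after scaling each line to its median ratio. TGFB1 stands farthest from the line.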

How the data were processed

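Polysome RNA of 6 libraries was measured, 1 per cell line and oxygen level. RPKM values were deposited by the authors as 1 table of 30726 genes. Tools listed in the submitters' processing notes, without versions, are HISAT2, Trimmomatic, Partek and SAMtools, with build GRCh38. The sources used here give neither the counting rules nor the strand setting. Read totals were not used: from the steps between low values of 1-transcript genes, 1 RPKM over 1 kb stood for about 27.6 reads or pairs in SKBR3 hypoxia and 33.4 in normoxia, with 60.9% and 60.5% of such values within 0.02 of a whole step. The floor of 3 counts, the limit that a count of 0 allows, then came to 0.109 and 0.0897 RPKM over 1 kb, for counting error only.

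Ratios were computed with pandas 2.3.3 on log2(RPKM + 1), with a call at 1. The difference between lines was tested with limma 3.58.1 (R 4.3.3), with a term per line, a mean-variance trend and Benjamini-Hochberg adjustment. In it, the SKBR3 pair is assumed to vary like the other lines. Labels do not say that libraries came from separate cultures.

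Named genes were the 20 largest and 20 smallest ratios at 10 RPKM or more, a panel of 26 genes, the 3 largest and 3 smallest of each list, the 10 largest and 10 smallest among genes at 3 RPKM or more that were under 1 RPKM in the other lines, and up to 10 past the test each way. Other genes were named after their values were seen, among them S100A6, CKB, EDN2, ECE1, GAPDH, ENO1, PKM, SLC2A3, KRT7 and TGFBR1. Members and lists were chosen with earlier results of these data known. Promoters and starts came from RefSeq, GRCh38.p14. Alternatives covered the pseudocount, the filter on low values, scaling and the limma prior.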

Additional observations from a re-analysis of the deposited data

Results flagged for a closer look

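In 4 genes the SKBR3 log2 ratio differed from the mean of SUM1315 and T47D by limma's test of the difference itself (Benjamini-Hochberg adjusted p under 0.05 over 8278 genes). TGFB1 differed by 3.34, with RPKM of 0.339 and 11.9 in SKBR3 normoxia and hypoxia. AP000356.5 differed by 2.81 and RNA5-8SN3 by 2.61, with 3.10 and 13.3 RPKM in SKBR3 normoxia. For TGFB1, AP000356.5 and RNA5-8SN3 alike, the SKBR3 normoxia library held the lowest value of the 6. PTMAP12 differed by 1.66, from 0.0906 RPKM in SKBR3 normoxia, near the floor of 0.0897 RPKM over 1 kb. With a pseudocount of 5 none of the 4 passed. With a minimum of 10 RPKM in each line TGFB1 and PTMAP12 were not among the 2611 genes tested, and AP000356.5 and RNA5-8SN3 did not pass.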

How the results depend on the processing

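Counts of SKBR3 genes past 1 moved with the setting. In place of 235 higher and 71 lower, a pseudocount of 0.1 gave 440 and 168, a pseudocount of 5 gave 98 and 31, libraries scaled to equal sums 401 and 131, and the same without ribosomal protein and mitochondrially encoded genes 367 and 167. At 10 RPKM or more 145 were higher. Scaling to equal sums, as done here, also makes the pseudocount relatively smaller. For the difference between lines, in place of 4 above, a pseudocount of 0.1 gave 7, and a pseudocount of 5, a minimum of 10 RPKM and no filter on low values each gave 0 in both directions (808, 240 and 2691 at an unadjusted p under 0.05). The minimum of 10 RPKM removed TGFB1 and PTMAP12 before the test. Median scaling gave 59 above and 31 below, where limma's prior degrees of freedom were 69.6 in place of 9.18. Of 113 named genes past 1, none reversed under the settings tried, and 70 stayed past it with a pseudocount of 5. Named genes with ratios nearer 0 were not part of that check, and some changed sign. VHL, for example, had -0.10 on the deposited values and 0.005 after median scaling. In 13 of 53 lists the sign of the median changed with scaling, each with a median of at most 0.0717 in size. No paired analysis was possible because the labels give no replicate numbers, other than the pairing by line that the limma fit holds as a term per line. With 1 library per group no replicate could be left out.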
